A study of Mus musculus with 10 samples.

Results

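The dopamine receptor genes *Drd1*, *Drd2*, *Drd3*, *Drd4* and *Drd5* were chosen by symbol, and all 5 were found among the 33502 genes of the deposited nuclear count table. The study dissociated nuclei from punches of the paraventricular thalamus (PVT), which lies along the midline, and of tissue around it, in C57BL/6J mice aged 12 weeks. The methods describe samples that each pooled punches of 4 mice, which is stated for 4 replicates, and name no treatment of these mice. Sequencing of single-nucleus RNA from the 3′ end gave unique molecular identifier (UMI) counts for 20503 nuclei in 10 libraries. There were 4 libraries in the biol_rep set, marked as male in the deposited metadata, and 6 in the female_biol_rep set. The sets also differed in depth, and the 13 mitochondrial genes had 0 UMIs in the biol_rep set and 562659 in the female_biol_rep set, so sex, depth and processing cannot be told apart.

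Dopamine receptors are G protein-coupled receptors that respond to dopamine released by midbrain and hypothalamic neurons. The D1-class receptors, encoded by *Drd1* and *Drd5*, couple to stimulatory G proteins and raise cyclic AMP, whereas the D2-class receptors, encoded by *Drd2*, *Drd3* and *Drd4*, couple to inhibitory G proteins, lower cyclic AMP and can open inwardly rectifying potassium channels. Dopaminergic fibres reach the midline thalamus, and *Drd2* and *Drd3* are well-known receptor genes of the PVT.

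In GRCm38 (mm10) with GENCODE M21 gene models, *Drd1* lies on chromosome 13 from 54051183 to 54055705 on the minus strand, is 4.52 kb long and has 2 exons. *Drd5* lies on chromosome 5 from 38319367 to 38322518 on the plus strand and has 1 exon. It overlaps the antisense gene Gm26560, which had 24 UMIs in neurons beside 352 for *Drd5*; no source used here says whether counting took strand into account, so reads in the overlap may be split between them. *Drd2* covers 67.6 kb of chromosome 9 (49340627 to 49408177, plus strand), of which 3.77% is exonic, and *Drd3* covers 68.9 kb of chromosome 16 (43754026 to 43822932, plus strand), of which 2.48% is exonic. *Drd4* lies on chromosome 7 from 141292006 to 141296464 on the plus strand. Nuclear RNA is rich in introns, and UMI counts were not divided by gene length, so levels are compared between groups of nuclei and not between receptors.

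Neurons were nuclei that the deposited cluster names call neurons and that had more than 1000 genes detected, 10307 nuclei in all. They were split by 5 regional markers that include no dopamine receptor, and 5913 of them (57.4%) joined a group. There were 3450 C1ql3 neurons (marker of the PVT), 1031 Adarb2 neurons (mediodorsal thalamus), 304 Lpl neurons (intermediodorsal thalamus), 395 Gad2 neurons (GABAergic) and 733 Nwd2 neurons (habenula). Of the C1ql3 neurons, 3248 (94.1%) lay in the deposited clusters Neurons (1), (2) and (4), and of the Nwd2 neurons 731 (99.7%) lay in Neurons (6). The Gad2 group was mixed, with 164 nuclei (41.5%) in Neurons (5) and 180 (45.6%) in Neurons (1), (2) and (4). The Lpl group was mixed to a lesser degree, with 183 nuclei (60.2%) in Neurons (7) and 54 (17.8%) in Neurons (1), (2) and (4). Among the Gad2 neurons of Neurons (5), *Gad1*, which encodes a GABA-synthesising enzyme, stood at 120 CPM (UMIs scaled to a total of 1000000 per group), against 0.910 CPM in those of Neurons (1), (2) and (4). Within the C1ql3 neurons, 1680 nuclei were placed in the 5 subtypes that the study calls PVT1 to PVT5, by marker lists from which dopamine receptors had been left out. The study chose those lists on these same nuclei and names *Drd2* and *Drd3* as markers of PVT1 and PVT5. Subtype tests of the receptors are therefore not independent of that choice, and their p-values describe only the spread between libraries.

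Library totals ran from 7568267 to 55956635 UMIs in the biol_rep set and from 5119927 to 12891409 in the female_biol_rep set, and the median neuron of a library held 12615 to 21418 and 5729.5 to 9775.5 UMIs. At most 8 barcode sequences were shared by 2 libraries. P-values from edgeR measure the spread between libraries, which are pools of mice where the methods say so. A lower summed level can reflect fewer expressing nuclei or less RNA per nucleus, which a sum cannot tell apart.

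Of the 5 receptors, 4 were measurable in neurons, and *Drd4* was close to the limit of counting. Neurons held 579 *Drd1*, 2116 *Drd2*, 3497 *Drd3*, 352 *Drd5* and 11 *Drd4* UMIs. Oligodendrocytes, glia that wrap axons in myelin and that were used as the background of free RNA, had mean levels of 1.44 CPM for *Drd1*, 1.29 CPM for *Drd2*, 1.53 CPM for *Drd3*, 0.183 CPM for *Drd4* and 1.29 CPM for *Drd5* over 10 libraries. Neurons exceeded them by 13.1 ± 3.00 CPM for *Drd2* and by 24.1 ± 5.65 CPM for *Drd3* (SD, n = 10), in 10 of 10 libraries each (exact two-sided sign-flip permutation test, adjusted p = 0.00488 over the 5 receptors). The difference was 3.65 ± 2.81 CPM for *Drd1* and 1.90 ± 1.34 CPM for *Drd5* (n = 10), each positive in 9 of 10 libraries (exact permutation test, adjusted p = 0.00732). For *Drd4* the mean difference was -0.055 CPM (exact permutation p = 1), which rests on 1 oligodendrocyte UMI. Against astrocytes, with 0 *Drd4* UMIs in 5302 nuclei, it was 0.128 CPM, higher in 5 of 10 libraries (exact permutation p = 0.0625). The remaining libraries had no *Drd4* UMI in either, so 0.0625 was the smallest p that this test could give. These counts therefore could not decide whether the neuronal *Drd4* level lay above the background.

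Depth differed between the groups, so shares of nuclei with a UMI were also computed with each nucleus thinned to 2000 UMIs. At that depth, 7.27 ± 0.81% of C1ql3 neurons had a *Drd3* UMI (SD, n = 10 libraries), 3.83 ± 1.15% a *Drd2* UMI, 1.88 ± 1.20% a *Drd1* UMI and 0.546 ± 0.194% a *Drd5* UMI. The shares in oligodendrocytes were 0.177%, 0.258%, 0.231% and 0.132%. Thinning left out 15 C1ql3 neurons and 847 of 2462 oligodendrocytes, and the median nucleus of each before thinning held 11949.5 and 2321 UMIs. Without thinning, the C1ql3 shares were 28.3% for *Drd3*, 17.5% for *Drd2*, 7.71% for *Drd1* and 2.80% for *Drd5*, and the oligodendrocyte shares 0.448%, 0.354%, 0.412% and 0.336%. All intervals and floors here cover counting error only.

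*Drd1*, the main D1-class receptor gene of the forebrain, was carried by C1ql3 and Gad2 neurons and was near the glial level in the other groups. In Gad2 neurons the lowest library stood at 2.43, the median at 7.40 and the highest at 39.3 CPM, and in C1ql3 neurons at 2.16, 8.26 and 17.6 CPM. The Lpl, Adarb2 and Nwd2 groups had medians of 0, 0.378 and 0 CPM and highest libraries of 8.68, 3.38 and 1.61 CPM. In 10 of 10 libraries the Gad2 level exceeded the average of the remaining groups, and the C1ql3 level did so in 9 of 10, though single libraries of the groups overlapped.

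Against the mean of the other 4 groups, *Drd1* was higher in C1ql3 neurons by 2.03 on the log2 scale (SE 0.24, adjusted p = 5.3e-11, edgeR quasi-likelihood test with Benjamini-Hochberg adjustment over 16123 genes). It was higher in Gad2 neurons by 2.45 (SE 0.34, edgeR adjusted p = 2.2e-08), and lower in Nwd2 neurons (-2.29, adjusted p = 0.00038) and in Adarb2 neurons (-1.32, adjusted p = 0.01). The Lpl value was -0.87 (edgeR adjusted p = 0.44). In the order of mean levels (Gad2, C1ql3, Lpl, Adarb2, Nwd2), only the step from C1ql3 to Lpl separated neighbours, at 2.32 (SE 0.46, edgeR adjusted p = 0.00012); C1ql3 minus Gad2 was -0.34 (adjusted p = 0.58), Adarb2 minus Lpl -0.36 (adjusted p = 0.80) and Adarb2 minus Nwd2 0.77 (adjusted p = 0.38). The lower *Drd1* in Adarb2 neurons rested on few UMIs: it was no longer called without biol_rep replicate 3 (adjusted p = 0.21) or replicate 4 (adjusted p = 0.065).

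*Drd5*, the other D1-class gene, had a different pattern, with Lpl neurons highest. The Lpl libraries ran from 0 through a median of 7.22 to 20.2 CPM, against 0.969, 3.20 and 3.67 CPM in C1ql3 neurons and 0.556, 1.67 and 7.17 CPM in Adarb2 neurons. Gad2 and Nwd2 neurons had medians of 0 CPM and highest libraries of 4.29 and 7.78 CPM. In 7 of 10 libraries Lpl neurons exceeded the average of the remaining groups, and their range spanned those of all other groups.

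The edgeR contrast put *Drd5* higher in Lpl neurons by 1.99 (SE 0.40, adjusted p = 0.00012) and lower in Nwd2 neurons (-1.59, SE 0.55, adjusted p = 0.013), with 0.25 in C1ql3 neurons (adjusted p = 0.55), -0.63 in Adarb2 neurons (adjusted p = 0.23) and -0.02 in Gad2 neurons (adjusted p = 1). Between neighbours in the order of means, Lpl exceeded C1ql3 neurons by 1.39 (edgeR adjusted p = 0.0092), while C1ql3 and Adarb2, Adarb2 and Nwd2, and Nwd2 and Gad2 neurons did not differ beyond their spread (adjusted p = 0.14, 0.36 and 0.19). For the last pair the edgeR value put Gad2 above Nwd2 neurons (1.25), the reverse of the order of means. The Lpl difference did not pass when the grouping was made stricter (1.39, edgeR adjusted p = 0.079). The Nwd2 difference was lost without biol_rep replicate 1 (-1.29, adjusted p = 0.055) and was 0.08 within the female_biol_rep libraries (adjusted p = 0.75).

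*Drd2*, which encodes the receptor that acts both on target neurons and as an autoreceptor of dopamine neurons, was highest in C1ql3 neurons and nearly missing from Nwd2 neurons. C1ql3 libraries ran from 10.8 through 20.6 to 28.4 CPM and Adarb2 libraries from 4.45 through 8.75 to 14.1 CPM. Gad2 libraries ran from 3.84 through 8.60 to 61.2 CPM and Lpl libraries from 0 through 2.02 to 22.2 CPM. In Nwd2 neurons the median was 0 CPM, and 2 *Drd2* UMIs were counted in all. The highest Gad2 library, female_biol_rep replicate 1, held 11 UMIs, and the next library of its set stood at 19.2 CPM.

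*Drd2* was higher in C1ql3 neurons (log2 difference 2.37, SE 0.21, edgeR adjusted p = 5e-15), in Gad2 neurons (1.37, SE 0.35, adjusted p = 0.0024) and in Adarb2 neurons (1.01, SE 0.29, adjusted p = 0.0032), each against the mean of the other 4 groups, which includes the very low Nwd2 level. The Lpl value was 0.24 (edgeR adjusted p = 0.75). With pooled UMIs, the C1ql3 level was 77.2 times that of Nwd2 neurons (exact 95% interval 21.3 to 638), and the edgeR contrast for Nwd2 neurons had an adjusted p of 1.7e-11. In the order C1ql3, Gad2, Adarb2, Lpl, Nwd2, the first step passed (0.81, SE 0.27, edgeR adjusted p = 0.049) and so did the last (Lpl minus Nwd2, adjusted p = 7.4e-06), while Adarb2 did not differ from Gad2 (adjusted p = 0.55) or from Lpl neurons (adjusted p = 0.27) beyond their spread. DESeq2 gave the Adarb2 difference an adjusted p of 0.064, and the Gad2 difference was 0.27 when deposited clusters replaced the marker groups. In that alternative each cluster was named by its highest marker relative to the mean of the clusters. Neurons (8), which held 87 C1ql3 and 88 Adarb2 neurons, was thus counted as Adarb2 at a relative level of 0.92. All groups of a contrast therefore changed together.

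*Drd3*, a D2-class gene with limbic expression, separated C1ql3 neurons from the thalamic and habenular groups in every library. Its C1ql3 libraries ran from 33.5 through 42.1 to 49.5 CPM, whereas Adarb2 libraries reached at most 3.59 CPM, Nwd2 libraries 2.68 CPM and Lpl libraries 14.8 CPM. These 3 groups did not overlap C1ql3 neurons. Gad2 libraries ran from 5.57 through 22.9 to 53.6 CPM and overlapped them.

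The log2 difference of *Drd3* was 3.48 in C1ql3 neurons (SE 0.16, edgeR adjusted p = 2.4e-28) and 2.45 in Gad2 neurons (SE 0.25, adjusted p = 5.3e-12), with lower levels in Nwd2 neurons (-3.07, adjusted p = 2.2e-08) and Adarb2 neurons (-2.91, adjusted p = 9.6e-09) and 0.06 in Lpl neurons (adjusted p = 0.94). In the order C1ql3, Gad2, Lpl, Adarb2, Nwd2 the first 3 steps passed edgeR. C1ql3 exceeded Gad2 neurons by 0.82 (edgeR adjusted p = 0.002), Gad2 exceeded Lpl (adjusted p = 1.9e-05) and Lpl exceeded Adarb2 neurons (adjusted p = 0.00018). Adarb2 and Nwd2 neurons did not differ beyond their spread (0.13, edgeR adjusted p = 0.90). Of the 304 Lpl neurons, 54 lay in the PVT clusters. The Lpl value was -1.27 when deposited clusters replaced the marker groups, which changed the other groups as well as Lpl. The part of the 54 nuclei in the Lpl level was not tested.

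The *Drd3* UMIs of Gad2 neurons lay mostly in nuclei of the PVT clusters. Pooled over libraries, Gad2 neurons of Neurons (1), (2) and (4) had 45.1 CPM of *Drd3* and those of Neurons (5) 4.71 CPM. With the Gad2 group restricted to Neurons (5), an alternative added after the data were seen, the *Drd3* difference was -0.13 (edgeR adjusted p = 0.97), whereas *Drd1* kept 2.61 (adjusted p = 1.7e-05) and *Drd2* 1.82 (adjusted p = 0.002). In the Gad2 neurons of Neurons (5), pooled *Drd1* stood at 18.0 and *Drd2* at 19.6 CPM. Of genes known from the striatum, *Penk*, which encodes proenkephalin, had 40 UMIs there, the adenosine receptor gene *Adora2a* 13 and *Ppp1r1b* 8, against 1, 0 and 1 in the Gad2 neurons of the PVT clusters; these were picked after their values were seen. The whole list of 6 striatal projection neuron genes, most of whose UMIs are *Pde10a*, summed to 1119 CPM in Gad2 neurons (714 to 1892 over libraries), and the libraries overlapped those of Adarb2 neurons (764 to 1897) and Lpl neurons (785 to 1465). The part of these genes in the receptor levels was not tested.

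*Drd4*, the remaining D2-class gene, had 4 UMIs in C1ql3, 3 in Nwd2 and 1 in Lpl neurons. None was found in 1031 Adarb2 neurons, which allows a share of nuclei with a UMI of up to 0.291%, or in 395 Gad2 neurons, which allows up to 0.759%. It did not reach the 20 UMIs in each library set that a test required.

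**Figure D1:**
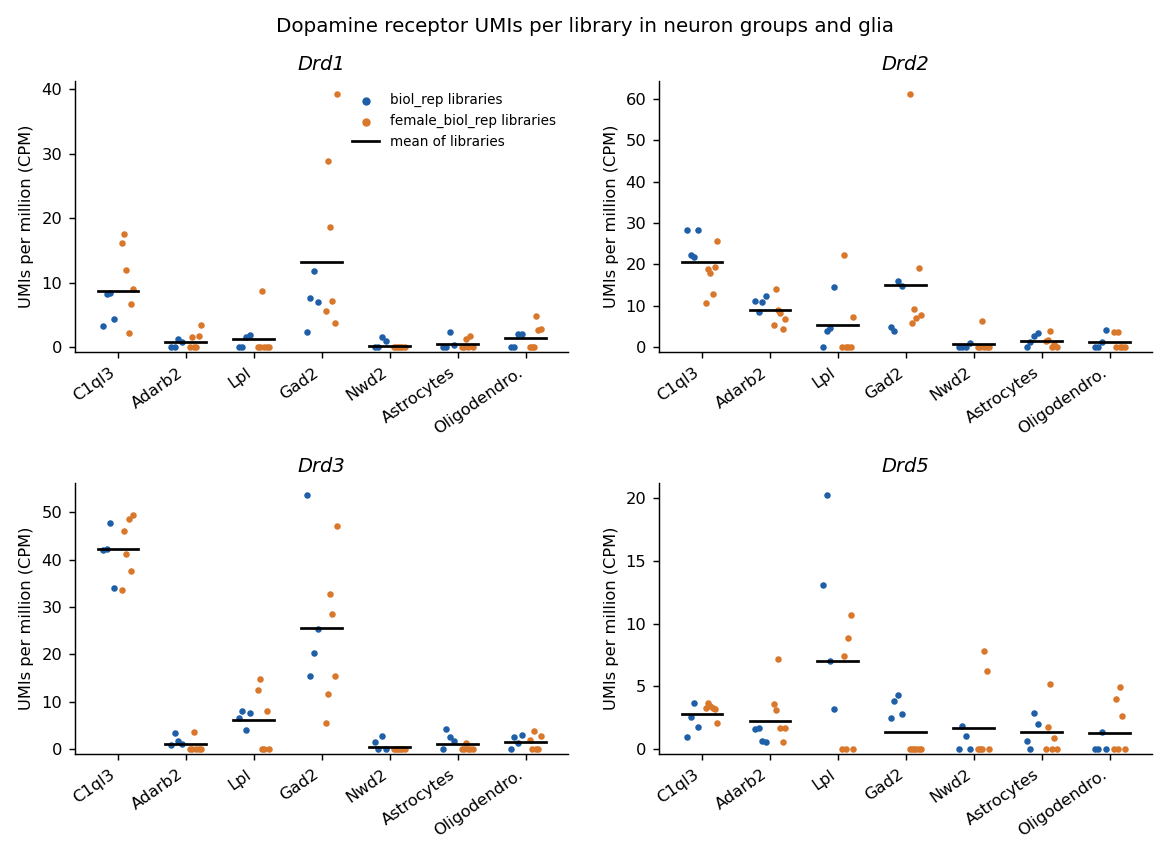
Dopamine receptor levels in CPM by neuron group, 1 point per library coloured by library set, with the mean of libraries as a line. The C1ql3 libraries for *Drd3* (33.5 to 49.5 CPM) lie above every Adarb2, Lpl and Nwd2 library, and *Drd5* reaches its highest libraries in Lpl neurons (up to 20.2 CPM).

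Taking the 4 tested receptors together, 3 were called in C1ql3 neurons (adjusted p under 0.05 and a log2 difference over 0.5), where 19.7% of all genes tested were called. The counts were 3 in Adarb2 neurons (25.4% of all genes), 1 in Lpl neurons (8.55%), 3 in Gad2 neurons (11.2%) and 4 in Nwd2 neurons (39.0%). The calls in C1ql3 and Gad2 neurons were all higher, and those in Nwd2 neurons all lower. Over all genes, too, most calls were higher in C1ql3 neurons (2393 higher, 781 lower) and in Gad2 neurons (1370 higher, 441 lower). In Nwd2 neurons 2870 genes were called higher and 3422 lower. In the C1ql3 contrast the median of all genes was 0.10.

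The deposited clusters, which were made from these same nuclei and genes and are therefore described without a test, resolved the C1ql3 neurons further. *Drd1* averaged 23.6 ± 8.74 CPM in Neurons (4), 7.28 CPM in Neurons (2) and 2.48 CPM in Neurons (1) (n = 10 libraries). *Drd2* ran the other way, with 30.1 CPM in Neurons (1), 12.7 CPM in Neurons (2) and 1.49 CPM in Neurons (4). The lowest Neurons (1) library for *Drd2* was at 25.0 CPM and the highest Neurons (4) library at 3.58 CPM, so these clusters did not overlap.

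*Drd3* was present in all 3 PVT clusters, at 38.1, 45.2 and 61.9 ± 10.8 CPM in Neurons (1), (2) and (4). It stood at 0.411 CPM in Neurons (3), at 1.21 CPM in Neurons (7) and at 0.855 CPM in Neurons (6). *Drd5* was highest in Neurons (7), the cluster led by *Lpl*, with libraries from 2.35 through 6.07 to 15.4 CPM and none at 0, and was 0.458 CPM in Neurons (4). The *Drd5* level in Neurons (7) overlapped those in Neurons (2), which averaged 5.01 CPM, and Neurons (5), which averaged 5.21 CPM.

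**Figure D2:**
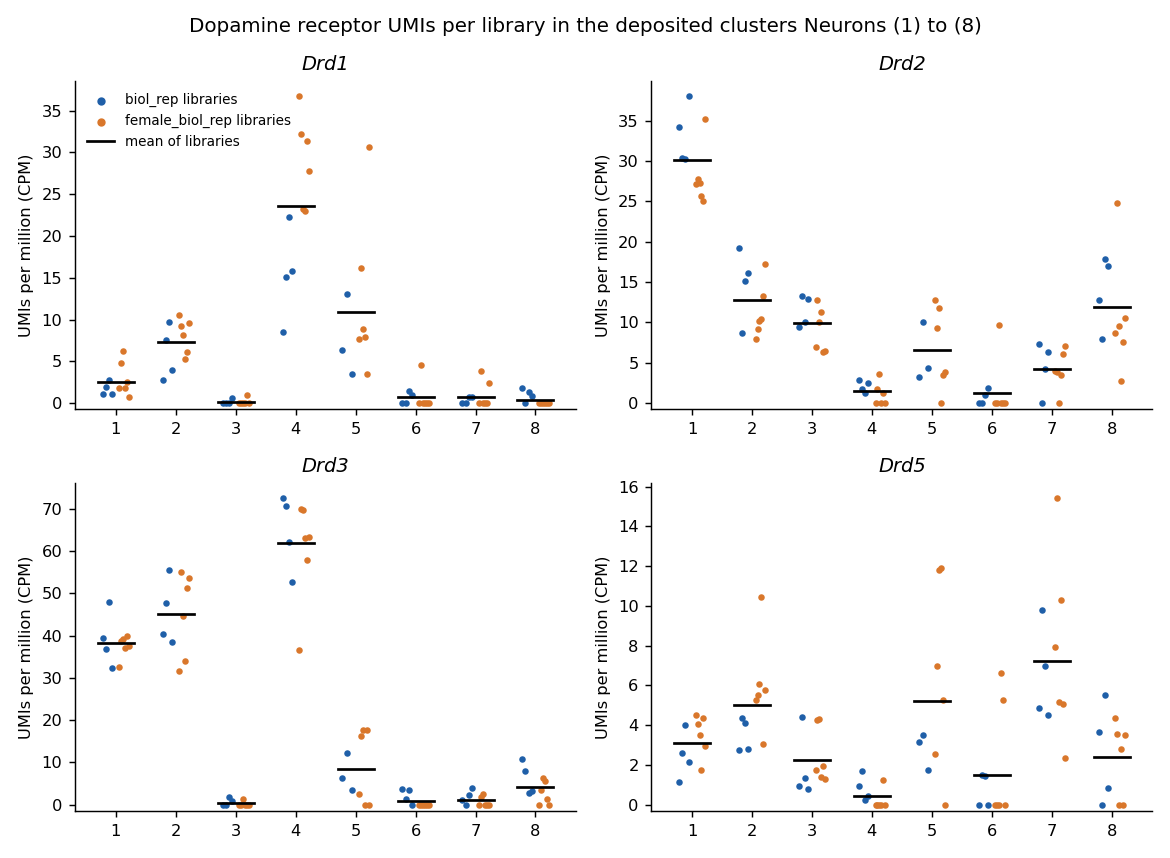
Receptor levels in CPM in the 8 deposited neuron clusters, numbered on the horizontal axis, 1 point per library with the mean as a line. *Drd1* is highest in cluster 4 and *Drd2* in cluster 1, while *Drd3* is present in clusters 1, 2 and 4 and *Drd5* has its highest library (15.4 CPM) in cluster 7.

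Among the PVT subtypes, each receptor had its own order. *Drd1* was highest in PVT3, with libraries from 0 through a median of 26.6 to 51.6 CPM, and next in PVT4, with 0, 14.8 and 37.5 CPM. PVT5 averaged 8.03 ± 8.20, PVT1 4.82 ± 6.38 and PVT2 2.06 ± 4.09 CPM (SD, n = 10 libraries, 9 for PVT2). All subtypes overlapped, since each held at least 1 library at 0. Against the other subtypes *Drd1* was higher in PVT3 (2.18, edgeR adjusted p = 8.6e-16) and PVT4 (1.00, adjusted p = 0.024) and lower in PVT2 (-2.03, adjusted p = 0.00021) and PVT1 (-1.25, adjusted p = 0.022), with 0.11 in PVT5. Between neighbours in the order, PVT3 exceeded PVT4 (0.95, edgeR adjusted p = 0.026), and no other step passed (adjusted p = 0.35, 0.24 and 0.86). The PVT4 value was lost without biol_rep replicate 1, 3 or 4 or female_biol_rep replicate 6 (edgeR adjusted p = 0.056, 0.094, 0.072 and 0.051) and the PVT1 value without biol_rep replicate 2, 3 or 4 (adjusted p = 0.084, 0.11 and 0.077). Without the library as a block, both were lost too (adjusted p = 0.079 and 0.11).

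*Drd3* was highest in PVT5, at 62.2 through 93.3 to 115 CPM. PVT3 ran from 25.8 through 52.3 to 81.1, PVT4 from 15.2 through 42.3 to 77.2, PVT1 from 13.2 through 29.8 to 53.9, and PVT2 from 0 through 14.4 to 31.3 CPM. The PVT5 level topped the average of the remaining subtypes in 10 of 10 libraries and did not overlap PVT1 or PVT2. The contrast was 1.32 for PVT5 (edgeR adjusted p = 2.5e-23) and -1.50 for PVT2 (adjusted p = 2.7e-15). In PVT3 the difference of 0.43 (edgeR adjusted p = 0.015) was under the size limit of 0.5 and passed it without biol_rep replicate 3 (0.58), and PVT1 (-0.36) and PVT4 (0.11) were not called. Along the order, PVT5 over PVT3 and PVT1 over PVT2 passed (edgeR adjusted p = 7e-05 and 0.0019), and PVT3 with PVT4, and PVT4 with PVT1, did not (adjusted p = 0.52 and 0.25).

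*Drd2* was high in PVT1 and PVT2, where *Drd1* was low, and low in PVT3, where *Drd1* was high. It averaged 36.1 CPM in PVT1 and 27.1 CPM in PVT2, 13.8 CPM in PVT5, 8.81 CPM in PVT4 and 2.23 CPM in PVT3, with 1.92 for PVT1 (edgeR adjusted p = 1.5e-22), 1.40 for PVT2 (adjusted p = 3.3e-09) and -3.21 for PVT3 (adjusted p = 2.6e-17). PVT4 (-0.46) and PVT5 (0.36) were not called. Neighbours in the order differed from PVT2 to PVT5 (0.84, edgeR adjusted p = 0.018) and from PVT4 to PVT3 (adjusted p = 0.00025), but not from PVT1 to PVT2 (adjusted p = 0.44) or from PVT5 to PVT4 (adjusted p = 0.27). In the female_biol_rep libraries alone the PVT2 value was 0.95 (edgeR adjusted p = 0.51) and the PVT3 value -1.95 (adjusted p = 0.053), so neither was called.

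*Drd5* had no UMI in any of the 327 PVT3 nuclei over 10 libraries, which allows a share of nuclei with a UMI of up to 0.917%. The other subtypes together held 51 UMIs (2.99 CPM), so that, with 3 UMIs over the group as the floor, *Drd5* was at least 4.07-fold lower in PVT3 (edgeR adjusted p = 0.00017). This call was lost in the female_biol_rep libraries alone (adjusted p = 0.51). PVT4 averaged 6.56 ± 7.54 CPM, PVT1 3.85 ± 3.73, PVT2 2.03 ± 2.91 and PVT5 1.88 ± 3.13 CPM. The PVT4 difference of 1.44 (edgeR adjusted p = 0.029) was lost by DESeq2 (adjusted p = 0.24), and by edgeR without biol_rep replicate 2 or 3 (adjusted p = 0.079 and 0.074) or female_biol_rep replicate 2, 4 or 5 (adjusted p = 0.053, 0.052 and 0.14). The PVT3 cells, 281 of 327 of which lay in Neurons (4), carried *Drd1* and *Drd3* and were low in *Drd2*.

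The number of the 4 tested receptors called was 3 in PVT3, where 12.1% of all genes were called, and 3 in PVT2 (7.28% of all genes). It was 2 in PVT1 (4.71% of all genes) and 2 in PVT4 (5.97%). In PVT5 *Drd3* was the single receptor called, against 3.36% of all genes.

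**Figure D3:**
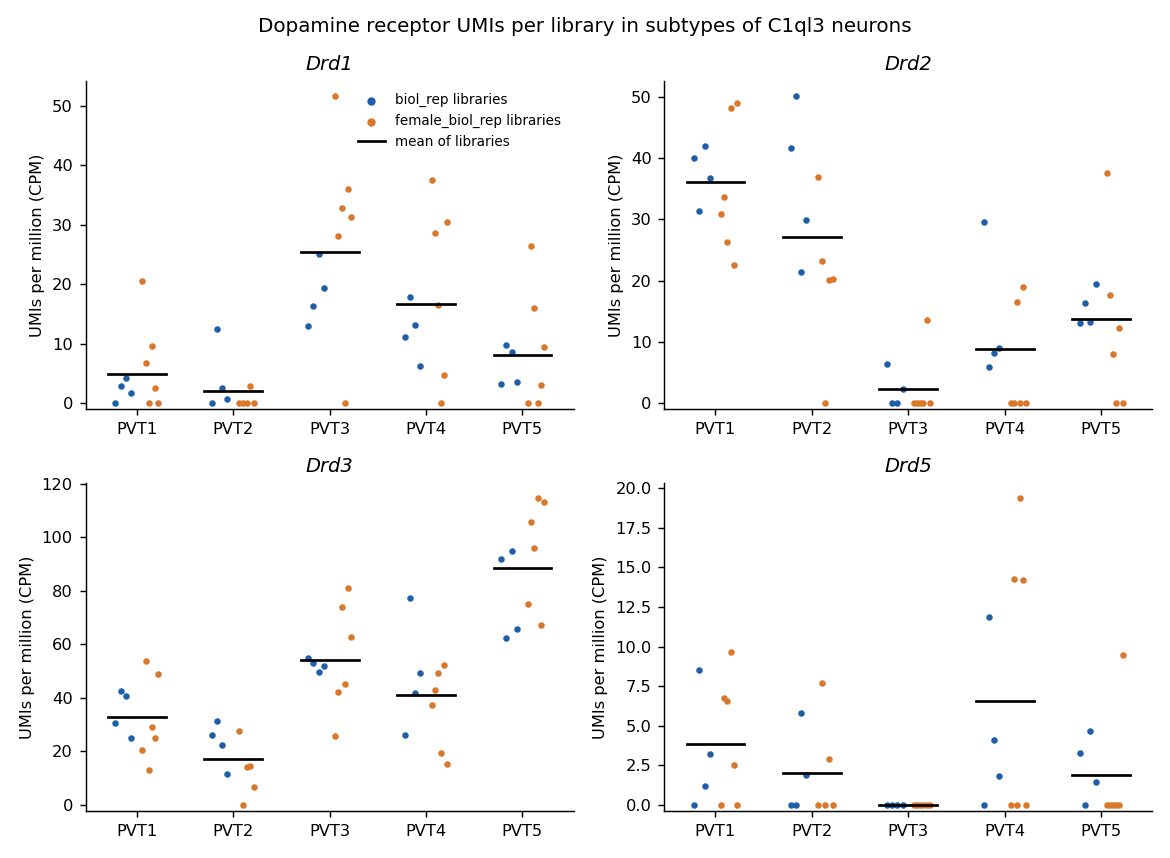
Receptor levels in CPM in the 5 subtypes of C1ql3 neurons, 1 point per library coloured by library set, with the mean as a line. *Drd3* is highest in PVT5 (62.2 to 115 CPM), *Drd1* in PVT3 and *Drd2* in PVT1, and every PVT3 library has *Drd5* at 0.

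Because *Drd1* and *Drd2* are known for marking separate neurons in the striatum, the receptors were compared nucleus by nucleus at matched depth. Both *Drd1* and *Drd2* were found in 39 C1ql3 neurons where 59.3 were expected, with a mean log2 odds ratio of -0.90 ± 0.75 (SD, n = 10 libraries) that was below 0 in 9 of 10 libraries (exact two-sided sign-flip permutation test, adjusted p = 0.0352 over the 6 pairs tested). In female_biol_rep replicates 1, 3, 4 and 6, 0 nuclei held both, with 0.78, 0.87, 0.13 and 1.48 expected. A library with 0 such nuclei always falls below 0, and at so few expected this can easily happen without any separation. The 9 of 10 and the p-value are therefore partly set by sparse counts. The remaining libraries held nuclei with both, and all but female_biol_rep replicate 2 (0.25) were below 0. The call did not hold everywhere: it was lost without biol_rep replicate 3 or 4 or female_biol_rep replicate 1, 3, 4 or 5, and in a test of observed minus expected nuclei (exact permutation, adjusted p = 0.0586). When nuclei were matched for depth within their deposited cluster, the mean was -0.03 (exact permutation, adjusted p = 0.921), so that within clusters no separation of these receptors was detected.

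*Drd1* and *Drd3* were found together in 107 nuclei with 92.5 expected (log2 odds ratio 0.43 ± 0.76, 6 of 10 libraries above 0, exact permutation, adjusted p = 0.219). *Drd2* and *Drd3* shared 253 nuclei with 261 expected (-0.29 ± 0.68, adjusted p = 0.253 by the exact permutation test), and *Drd2* and *Drd5* shared 39 with 27.8 expected (0.59 ± 0.80, 7 of 10 libraries, adjusted p = 0.141). *Drd1* and *Drd5* shared 8 nuclei with 10.3 expected. Over all neurons, which also mix regions, *Drd1* with *Drd3* was above expectation (184 nuclei against 121, 9 of 10 libraries, exact permutation, adjusted p = 0.0156). So was *Drd2* with *Drd5* (72 nuclei against 56.0, 9 of 10 libraries, exact permutation, adjusted p = 0.0156). Below expectation were *Drd1* with *Drd2* (63 nuclei against 82.5, mean log2 odds ratio -0.66, exact permutation, adjusted p = 0.0156) and *Drd1* with *Drd5* (11 against 19.4, -0.64, exact permutation, adjusted p = 0.0293). The latter pair was above 0 in 3 of 10 libraries. With 19.4 nuclei expected over 10 libraries, and a library with 0 always below 0, its p-value can be partly set by sparse counts. Of the 3450 C1ql3 neurons, 1750 held no receptor UMI, 1291 held 1 receptor, 373 held 2, 35 held 3 and 1 held 4; undetected receptors at this depth cannot be told from absent ones.

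**Figure D4:**
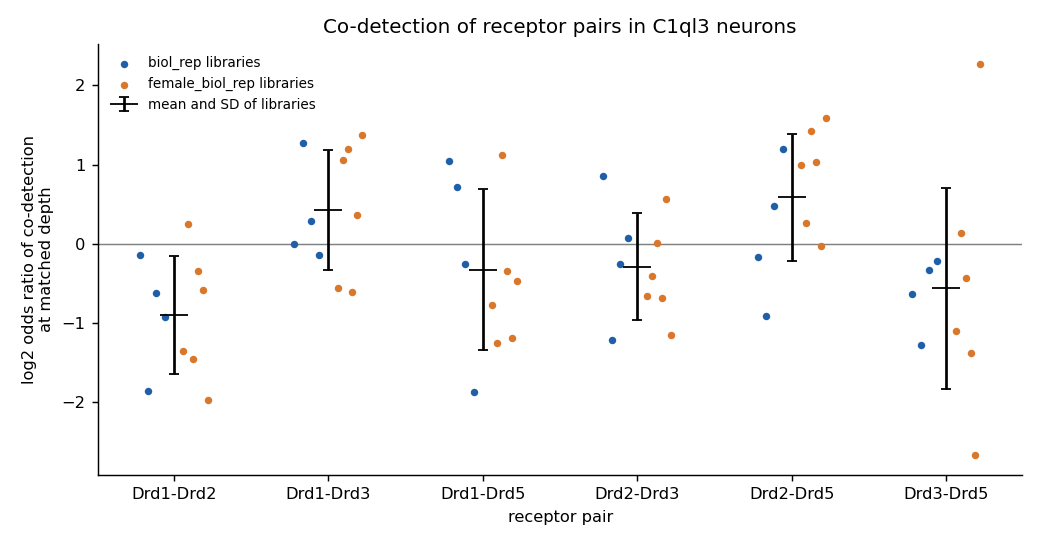
Log2 odds ratio of finding a UMI of both receptors in the same nucleus at matched depth, for 6 receptor pairs in C1ql3 neurons, 1 point per library with the mean and SD of libraries as a bar. *Drd1* with *Drd2* averages -0.90 and *Drd2* with *Drd5* 0.59.

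Between the library sets, receptor levels in C1ql3 neurons overlapped. *Drd1* was 3.23, 8.18, 8.35 and 4.33 CPM in biol_rep replicates 1 to 4 and 2.16, 10.5 and 17.6 CPM (lowest, median, highest) in the female_biol_rep libraries. *Drd2* was 28.4, 22.4, 21.9 and 28.2 CPM against 10.8, 18.5 and 25.8 CPM, and *Drd3* was 42.0, 42.2, 47.8 and 34.0 CPM against 33.5, 43.6 and 49.5 CPM. *Drd5* was 0.969, 2.58, 3.67 and 1.78 CPM against 2.09, 3.24 and 3.66 CPM. No receptor was called between the sets, where 4.06% of all genes were: female minus biol_rep was 0.70 for *Drd1* (SE 0.39, edgeR adjusted p = 0.33), -0.58 for *Drd2* (SE 0.21, adjusted p = 0.12), -0.05 for *Drd3* (adjusted p = 0.89) and 0.31 for *Drd5* (adjusted p = 0.79). At an unadjusted p under 0.05 edgeR gave 1 receptor, DESeq2 gave 1, and after adjustment DESeq2 called 0. Of 40 tests of whether a group or subtype difference itself differed between the sets, the smallest edgeR adjusted p was 0.55. An unadjusted p under 0.05 was found in 3 of them (*Drd3* in C1ql3 neurons, *Drd5* in Adarb2 and in Gad2 neurons). The share of all genes at that unadjusted threshold was not computed, so these counts are not read as a result. The *Drd5* tests in subtypes could not decide this, since their standard errors ran from 3032 to 5813 and the PVT1 value had none.

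Of 52 genes of dopamine synthesis, clearance and receptor signalling, 50 could be tested, and 11 were called higher and 7 lower in C1ql3 neurons; over all 16123 genes tested in this contrast, 2393 were called higher and 781 lower (19.7% in all). Higher were *Kcnj5*, a subunit of the potassium channels that inhibitory G proteins open (2.46, SE 0.16, edgeR adjusted p = 3.1e-21), *Maob*, which breaks down monoamines (1.47, SE 0.11, adjusted p = 3.9e-18), *Arpp21*, a phosphoprotein of the cyclic AMP pathway (1.15, SE 0.09), and *Adcy5*, an adenylyl cyclase (1.04, SE 0.10). Lower were *Ppp1r1b*, which encodes DARPP-32 (-2.37, SE 0.58, adjusted p = 0.00079), *Gnal*, the stimulatory G protein of the striatum (-0.83, SE 0.08), and the G protein regulators *Rgs2* (-0.80, SE 0.21) and *Rgs8* (-0.78, SE 0.10). *Th* and *Slc6a3*, which define dopamine neurons, averaged 0.30 and 0.02 CPM in C1ql3 neurons and were too low to test.

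**Figure D5:**
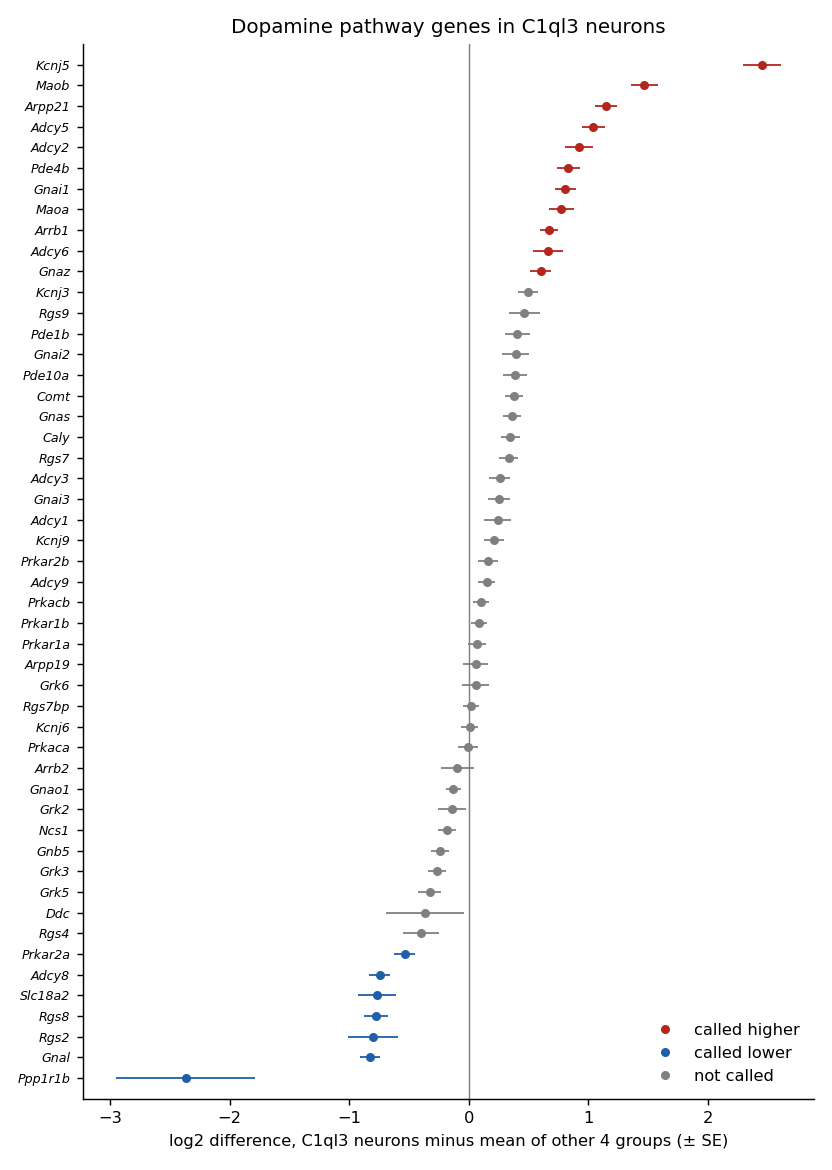
Log2 difference of dopamine pathway genes in C1ql3 neurons against the mean of the other 4 groups, with the standard error as a bar and colour for the call. *Kcnj5* lies highest at 2.46 and *Ppp1r1b* lowest at -2.37, and 32 of the 50 genes are not called.

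The genes whose levels ran most like each receptor were found over 89 sums of a library and a group or subtype. These sums share libraries, so r is given as a description. For *Drd3* they were *Gm32036* (Pearson r = 0.88), *Oxr1* (0.85) and *Dab1* (0.85), and for *Drd1* they were *Rerg*, *Gm1604a* and *Rfx3* (each 0.73). For *Drd2* they were *Igf1* (0.71), *Snx31* (0.70, itself a marker used to define PVT1) and *Plxna2* (0.69), and for *Drd5*, whose counts were low, r reached only 0.44 (*Syp*). Between receptors, *Drd1* and *Drd3* had r = 0.60, *Drd2* and *Drd3* 0.22 and *Drd1* and *Drd2* -0.12.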

How the data were processed

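The authors deposited whole UMI counts per gene and nucleus from 10x 3′ libraries (single cell 3′ v3 kit), with nuclei of low gene number, high mitochondrial share or doublet-like clusters removed by them. The submitters' processing notes name Cell Ranger 6.1.1 and mm10, whereas the paper's methods name an earlier Cell Ranger release, so which version made which library is not settled. Replicates were not pooled, and 0 columns of other samples were used. No doublet caller was run here. The library was taken from the deposited metadata.

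Marker levels were scaled per library to the top 5% of neurons, and a neuron joined a group with a scaled level of at least 0.25 and 2 times the second. Subtypes needed a list score z of at least 1 and 0.5 above the second. UMIs were summed per library and group (at least 10 nuclei) and tested with edgeR 4.0.16 (TMM, quasi-likelihood, library as block) in R 4.3.3 over the 16123 genes with at least 20 UMIs in each library set. Benjamini-Hochberg adjustment was over those genes, and calls needed an adjusted p below 0.05 with a log2 difference above 0.5 in size. DESeq2 1.42.0 was an alternative. Co-detection used Mantel-Haenszel odds ratios over 10 strata of depth, with 0.5 added to both sums. The code was tested on simulated data: of 50 genes raised by 1 on the log2 scale in the C1ql3 contrast, run on 16123 genes, 50 were called. Of 50 genes lowered by 1, 43 were called. Among 15923 unchanged genes, 16 were called and the median was 0.085. Changed genes were drawn above a UMI count that *Drd5* did not reach, so the rate for a gene as sparse was not tested.

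The members, gene lists and tests were chosen with earlier results of these data known. The named genes were the 5 receptors, the 3 genes most like each, and up to 4 pathway genes in each direction. Replicate numbers shared by the sets paired no samples: correlations of deviations ran from -0.085 to 0.057, so they are only names. Protein sequences were not used here.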

Additional observations from a re-analysis of the deposited data

Results flagged for a closer look

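Values were checked for each receptor and neuron group within 1 library set, which gave 76 groups of 4 to 6 libraries. Of these, 4 held a library far from the rest, and chance flags about 1 in 20 groups. In Gad2 neurons, *Drd2* stood at 61.2 CPM in female_biol_rep replicate 1 (11 UMIs), where the next library of that set had 19.2 CPM. In Lpl neurons, *Drd2* stood at 22.2 CPM in female_biol_rep replicate 2 (3 UMIs), and the next had 7.34 CPM. In PVT4, *Drd2* stood at 29.6 CPM in biol_rep replicate 1 (8 UMIs), and the next had 8.96 CPM. In C1ql3 neurons, *Drd5* stood at 2.09 CPM in female_biol_rep replicate 6 (3 UMIs), below the 3.16 CPM of the next.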

How the results depend on the processing

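Of the 20 group differences of receptors, 14 were called. The number was 8 of 10 with edgeR's filterByExpr, which dropped *Drd1* and *Drd5*, 9 in the female_biol_rep libraries alone, 13 by DESeq2, and 13 to 14 when 1 library was left out. Without the replicate block, with the library term left out, 14 were called. *Drd5* in Nwd2 neurons changed from -1.59 to 0.076 in the female_biol_rep libraries alone, and *Drd3* in Gad2 neurons from 2.45 to -0.13 with Neurons (5) only; the cause was not tested. With neurons holding a glial marker UMI left out, *Drd1* in Adarb2 neurons was -0.79 (edgeR adjusted p = 0.44) and *Drd5* in Nwd2 neurons -1.19 (adjusted p = 0.097).

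Of the 20 subtype differences, 11 were called, 2 of 5 with filterByExpr, which kept *Drd3* alone, 4 in the female_biol_rep libraries alone, 9 with no replicate block, and 9 to 11 when 1 library was left out. The set contrast called 0 receptors under every alternative run. The replicate block on the number shared by the sets gave -0.80 for *Drd2* (edgeR adjusted p = 0.17) and called 0; 1 of 4 biol_rep libraries correlated best with its own number.

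Of the 6 receptor pairs, 1 was called, 0 to 2 when 1 library was left out, and 0 in each library set alone, where few libraries limit the exact permutation test, within deposited clusters and by observed minus expected nuclei (both added after seeing the data). Shares of C1ql3 neurons at 4000 UMIs were 3.45% for *Drd1*, 7.35% for *Drd2*, 14.0% for *Drd3* and 1.15% for *Drd5*; without thinning they were 7.71%, 17.5%, 28.3% and 2.80%, with 0.137% for *Drd4*.

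In Lpl and Nwd2 neurons each receptor had libraries at 0 UMIs. The Gad2 group, with 395 nuclei against 733 Nwd2 neurons, had no library at 0 for *Drd1*, *Drd2* or *Drd3*. The part of depth in these zeros was not tested.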
